A study of Mus musculus with 6 samples.

Results

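The cholesterol synthesis genes described here are Srebf2, Hmgcs1, Idi1, Fdft1, Sqle, Lss, Dhcr7 and Insig1. They were taken by exact match of gene symbol, and all 8 were found among 21956 genes in the deposited table. All 8 passed the filter on low counts. RNA was sequenced from mouse material labelled lung tissue, in 3 libraries of a group labelled VE and 3 of a group labelled Aalter. The series title speaks of alpha tocopherol (a vitamin E), of allergic airway inflammation, of ILC2 (innate lymphocytes that make type 2 cytokines) and of ferroptosis, a form of cell death driven by lipid peroxides. The labels spell out neither group name and give no strain, age, dose or time. Since no label says that each library is its own animal, the p-values cover the spread among libraries, which may be technical.

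Cells make cholesterol from acetyl-CoA through mevalonate, isoprenoids, squalene and lanosterol. SREBP2, the protein of Srebf2, is held in the endoplasmic reticulum by its escort SCAP and by INSIG proteins while sterols are plentiful. When sterols run low it travels to the Golgi, is cut by 2 proteases, and its released part enters the nucleus and switches on the genes of the pathway, its own gene and Insig1 among them. The pathway also feeds ubiquinone and selenoprotein synthesis, and its last intermediate, 7-dehydrocholesterol, is readily oxidised and has been described as a brake on lipid peroxidation in cultured cells. In the lung, alveolar type 2 cells use cholesterol for surfactant and macrophages handle it when they clear surfactant and dying cells.

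Srebf2 was the only one of the 8 genes that passed the test, and it was lower in VE. None of the 6 enzyme genes passed in either direction, nor did Insig1. The promoters of Srebf2, Hmgcs1 and Insig1, known SREBP2 targets of which only Srebf2 passed the test, are shown as examples. The windows of Idi1, Lss and Dhcr7, enzyme genes of the same pathway, were searched too but are not printed. They held neither TCACNCCAC nor TCACCCCA. The RefSeq sequences (GRCm38.p6, plus strand) lie at chr15:82147019-82147180 for Srebf2, at chr13:119690101-119690350 for Hmgcs1 and at chr5:28071162-28071362 for Insig1. Each ends before the first annotated start of its gene. The stretch of Srebf2 is thereby cut to 162 bases and shows 1 of the 4 GGGCGG boxes in its window of 250 bases. Capitals mark matches on either strand to CCAAT, the box bound by NF-Y and written ATTGG on the other strand, to GGGCGG, the box bound by Sp1 (CCGCCC on the other strand), and to the 8-letter run TCACCCCA.
Srebf2: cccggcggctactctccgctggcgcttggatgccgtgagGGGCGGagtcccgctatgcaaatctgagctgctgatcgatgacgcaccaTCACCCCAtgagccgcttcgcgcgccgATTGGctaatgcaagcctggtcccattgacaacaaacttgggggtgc
Hmgcs1: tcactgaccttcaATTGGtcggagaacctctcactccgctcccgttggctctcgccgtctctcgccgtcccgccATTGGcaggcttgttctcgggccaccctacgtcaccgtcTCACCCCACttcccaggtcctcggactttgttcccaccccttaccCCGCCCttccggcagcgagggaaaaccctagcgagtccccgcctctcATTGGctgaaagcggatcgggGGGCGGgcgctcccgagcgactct
Insig1: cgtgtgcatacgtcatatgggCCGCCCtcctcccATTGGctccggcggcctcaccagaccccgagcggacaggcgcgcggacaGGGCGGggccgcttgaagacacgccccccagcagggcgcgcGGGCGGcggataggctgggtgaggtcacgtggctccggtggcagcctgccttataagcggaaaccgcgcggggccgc
In Hmgcs1 the capitals of that run carry 1 more letter, since it sits inside a match to TCACNCCAC, a core of the sterol regulatory element that SREBPs bind. RefSeq windows of 250 bases before the start were available for 6 of the 8 genes, with 3 windows for Dhcr7. TCACNCCAC was found in 1 of these 8 windows, that of Hmgcs1, and in 1.05% of 32851 windows of that length over all genes. TCACCCCA, chosen after the sequences were seen, was found in 2 of the 8, those of Srebf2 and Hmgcs1, and in 1.34% of windows. The CCAAT box was found in 6 of the 8 windows of these genes and in 33.8% of all windows, and the GGGCGG box in 7 of the 8 and in 32.7%. Each gene had at least 1 window with each box, and the windows of Dhcr7 differed. A match is a description of these letters and not a site of binding.

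Total estimated counts lay between 12663763 and 15077851 in VE and between 11617074 and 16205053 in Aalter. Along the first principal component, with 66.7% of the variance, the VE libraries scored -40.2 to -36.01 and Aalter-2 and Aalter-3 scored 61.4 and 56.02. Aalter-1, at -2.35, stood nearer to VE. Values below are normalised read counts (CPM, scaled to library size times a factor per library, TMM). A fold change is VE over Aalter on the log2 scale from edgeR's quasi-likelihood test over 12551 genes, with Benjamini-Hochberg adjustment over all of them. The words rose and fell are kept for genes with an adjusted p under 0.05. By this rule 32.3% of tested genes were called, 12.8% higher and 19.5% lower in VE, and the median log2 fold change of all tested genes was 0.023. Scaling by library size alone moved that median to -0.12.

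Srebf2 (ENSMUSG00000022463, chromosome 15 from 82147181 to 82205379 in GENCODE vM21) had 50.3, 52.0 and 62.7 CPM in the VE libraries, against 85.0, 133 and 134 CPM in the Aalter libraries, in the order of their numbers. The groups did not overlap, and Aalter-1 was the lowest of its group. Means were 55.0 ± 6.77 CPM in VE and 118 ± 28.2 CPM in Aalter (SD, n = 3 each). The log2 fold change was -1.10 ± 0.19 (SE), with an adjusted p of 0.0103 from edgeR. These values rest on 621 to 917 counts per library in VE and 1397 to 2247 in Aalter. All 8 genes are annotated as protein-coding. Bulk RNA does not tell fewer cells that express a gene from less RNA per cell.

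The fall of Srebf2 was smaller, though still past the test, once trends with GC content and transcript length were taken out together. Genes that fell in VE had a median GC content of 52.7% and a median longest transcript of 4454 bases, against 47.3% and 2699 bases in genes that rose. Srebf2 has the highest GC content of the 8 genes, 57.9%, and its longest transcript has 5077 bases. After removal of the trends with GC content and transcript length in every library, its log2 fold change was -0.44 (adjusted p = 0.0394 from edgeR), with 26.3% of all tested genes called. It was -1.28 without Aalter-1 (adjusted p = 5.14e-07), where 56.3% of tested genes were called. The call was lost without VE-1 (-1.04, adjusted p = 0.0587), without VE-2 (-1.07, adjusted p = 0.0681) and without Aalter-3 (-0.99, adjusted p = 0.0517), all from edgeR. Those fits called 481 of 12775, 179 of 12969 and 679 of 12876 tested genes, against 4053 of 12551 with all libraries.

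**Figure D1:**
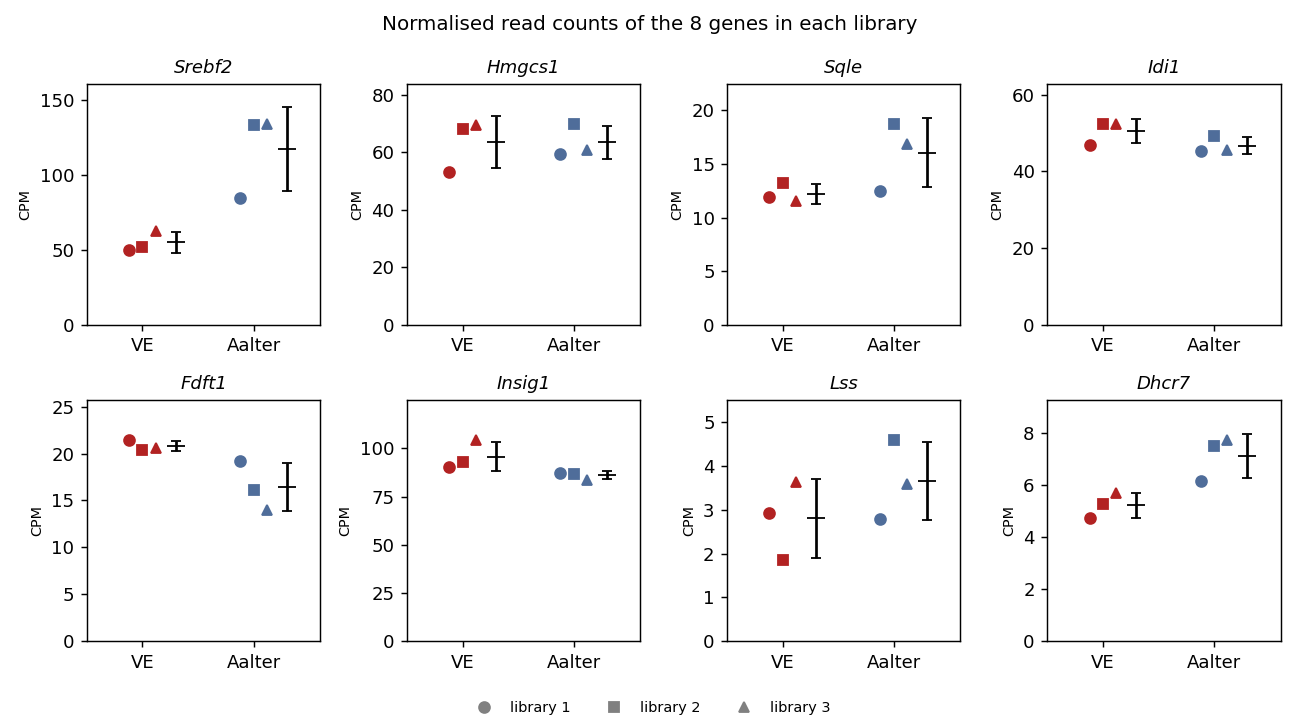
Normalised read counts (CPM, linear axes from 0) of the 8 genes in each library, VE left of Aalter, with the library number as the symbol and the mean ± SD of 3 libraries as black bars. Srebf2 lies between 50.3 and 62.7 CPM in VE and between 85.0 and 134 CPM in Aalter, while Hmgcs1 and Idi1 overlap between the groups.

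Hmgcs1 and Idi1, enzymes of the early pathway, were at like levels in both groups. Hmgcs1 (ENSMUSG00000093930, chromosome 13 from 119690379 to 119708260) makes HMG-CoA, from which mevalonate is formed. It had 53.3, 68.0 and 69.6 CPM in VE, against 59.5, 69.9 and 60.8 CPM in Aalter. The libraries of both groups were interleaved, and VE-1 was the lowest of all. Its log2 fold change was 0.005 ± 0.13, with a 95% interval from -0.30 to 0.30 (edgeR adjusted p = 0.980). Idi1 (ENSMUSG00000058258, chromosome 13 from 8885501 to 8892451) converts isopentenyl pyrophosphate into its reactive isomer, the building blocks of all isoprenoids. It had 46.9, 52.4 and 52.4 CPM in VE, against 45.2, 49.3 and 45.5 CPM in Aalter. VE-1 lay below Aalter-2, so the groups overlapped. The log2 fold change of Idi1 was 0.12 ± 0.090, with an interval from -0.096 to 0.33 (edgeR adjusted p = 0.348). After that removal, Hmgcs1 (GC content 43.1%) was at -0.19 and Idi1 (41.9%) at -0.18, and neither passed.

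Neither enzyme of squalene passed the test. Fdft1 (ENSMUSG00000021273, chromosome 14 from 63145150 to 63179578), squalene synthase, joins isoprenoids into the first molecule committed to sterols. It had 21.4, 20.4 and 20.6 CPM in VE, against 19.2, 16.2 and 14.0 CPM in Aalter, and every VE library was above every Aalter library. Its log2 fold change of 0.34 ± 0.14 did not pass (adjusted p = 0.0952). Leaving out Aalter-1 brought it past the test (0.47, adjusted p = 0.0041), as did removal of both trends (0.52, adjusted p = 0.034). The last 774 bases of Fdft1 overlap Ctsb, the gene of the lysosomal protease cathepsin B on the other strand, which had 1040 to 1224 CPM in VE and 609 to 864 CPM in Aalter. No source used here gives the strand setting of the counting, so reads of this stretch cannot be told apart, and the part of Ctsb in the Fdft1 values was not tested. Hmgcs1 and Lss also overlap annotated antisense genes, and Idi1 a short unclassified transcript on the other strand, so their reads have the same limit. Within Srebf2 lie an unclassified transcript and a miRNA gene on its own strand, and stranded counting would not part their reads from those of Srebf2.

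Sqle (ENSMUSG00000022351, chromosome 15 from 59315077 to 59331192), squalene epoxidase, adds oxygen to squalene in a rate-limiting step. It had 11.9, 13.2 and 11.5 CPM in VE, against 12.5, 18.7 and 16.9 CPM in Aalter. Aalter-1 lay within the VE range and the other Aalter libraries above it. The log2 fold change of -0.39 ± 0.17 did not pass (edgeR adjusted p = 0.114), but it did without Aalter-1 (-0.54, adjusted p = 0.00297) and when scaled by library size alone (-0.53, adjusted p = 0.0433).

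Lss and Dhcr7, which act after squalene epoxide, had the lowest counts of the 8 genes. Lss (ENSMUSG00000033105, chromosome 10 from 76531588 to 76557138), lanosterol synthase, folds squalene epoxide into the first sterol ring system. It had 41, 22 and 53 counts in VE, against 46, 55 and 60 counts in Aalter. In CPM these were 2.94, 1.84 and 3.63 in VE and 2.80, 4.58 and 3.59 in Aalter, with overlapping groups. The log2 fold change of Lss was -0.37 with a 95% interval from -1.08 to 0.34 on both sides of 0 (edgeR adjusted p = 0.373). Dhcr7 (ENSMUSG00000058454, chromosome 7 from 143823145 to 143848410) reduces 7-dehydrocholesterol to cholesterol. It had 4.72, 5.27 and 5.68 CPM in VE, against 6.14, 7.50 and 7.71 CPM in Aalter, and the groups did not overlap. The log2 fold change of -0.44 ± 0.16 did not pass (adjusted p = 0.0727). Dhcr7 passed once Aalter-1 was left out (-0.54, adjusted p = 0.0182) and when scaled by library size alone (-0.58, adjusted p = 0.0322).

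Insig1 (ENSMUSG00000045294, chromosome 5 from 28071363 to 28078662) encodes the anchor that keeps SCAP and SREBP2 in the endoplasmic reticulum, and its transcript is a common reading of SREBP2 activity. It had 90.2, 92.8 and 104 CPM in VE, against 87.3, 87.0 and 83.7 CPM in Aalter. Every VE library was above every Aalter library, by a narrow margin. The log2 fold change was 0.16 ± 0.089, with a 95% interval from -0.054 to 0.36 (edgeR adjusted p = 0.210). It passed without Aalter-1 and VE-1 together (0.22, adjusted p = 0.0384) and was at -0.013 after removal of both trends.

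Over the 8 genes, 0 rose and 1 fell with edgeR, against 32.3% of all tested genes called. At an unadjusted edgeR p under 0.05 there were 1 higher and 2 lower, and the share of all tested genes at that threshold was not counted. DESeq2 and limma-voom each gave 0 higher and 1 lower after adjustment. The median log2 fold change of the 8 genes was -0.18, and 0.023 over all tested genes. Groups did not overlap for 4 of the 8 genes, Srebf2, Fdft1, Insig1 and Dhcr7, and for 51.9% of all tested genes. Without Aalter-1, 1 rose and 3 fell, where 56.3% of tested genes were called. With library size scaling 0 rose and 3 fell, where 29.7% were called.

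Ratios within a library do not depend on how libraries are scaled, and Srebf2 was lower in VE relative to each of the other 7 genes. There were 0.944, 0.765 and 0.902 Srebf2 counts per Hmgcs1 count in VE, against 1.43, 1.91 and 2.21 in Aalter. Srebf2 counts were below those of Hmgcs1 in each VE library and above them in each Aalter library. The log2 ratio differed by -1.07 ± 0.21 (SE, VE minus Aalter). Relative to Insig1 the ratio was 0.557, 0.560 and 0.603 in VE, against 0.973, 1.53 and 1.61 in Aalter, a difference of -1.22 ± 0.23. The differences for the other 5 genes ran from -1.42 for Fdft1 to -0.63 for Dhcr7. All 7 ratios separated the groups. They share Srebf2, whose own CPM separated the groups, so they are not independent of each other. The share of all tested genes whose ratio to Srebf2 separates the groups was not counted. Each of the 7 ratios had a two-sided exact permutation p of 0.1, the smallest that 3 against 3 libraries allow. The adjusted p over the 7 was also 0.1. These ratios still carry the trends with GC content and length. After removal of both, the log2 fold change of Srebf2 minus that of the other gene was -0.25 for Hmgcs1 and -0.43 for Insig1, and over the 7 genes it ran from -0.96 for Fdft1 to -0.071 for Dhcr7. These differences between fitted values were not tested.

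**Figure D2:**
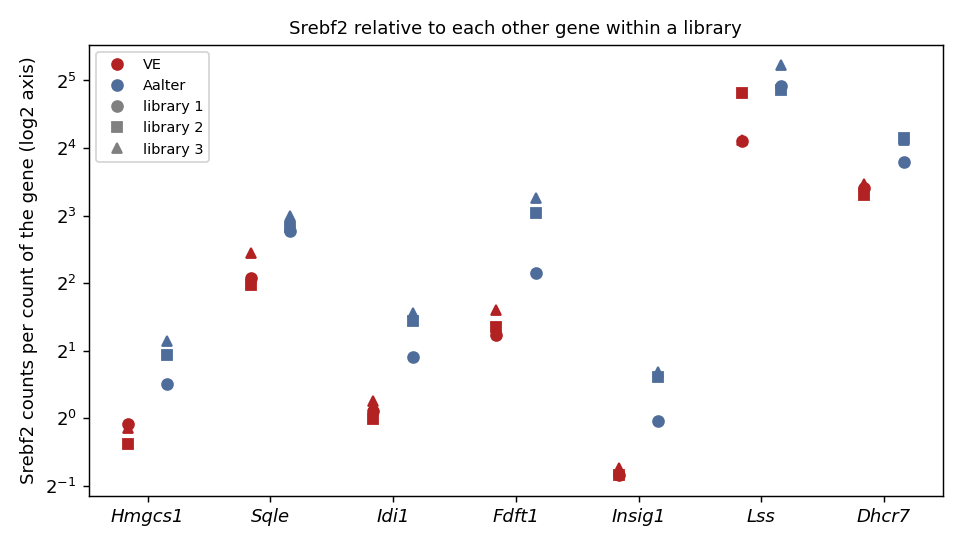
Srebf2 counts per count of each of the other 7 genes in the same library (log2 axis), VE left of Aalter, with the library number as the symbol. For each gene the VE ratios lie below the Aalter ratios, with Aalter-1 the lowest Aalter library for Hmgcs1 (1.43) and Insig1 (0.973).

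Levels between genes were compared as CPM per kilobase of the longest transcript. That transcript was taken from the annotation, whether or not it is the one expressed here, and trends with GC content were not removed. In VE the order of mean levels was Insig1 (35.5), Hmgcs1 (18.4), Idi1 (16.7), Srebf2 (10.8), Fdft1 (5.63), Sqle (2.73), Dhcr7 (1.86) and Lss (0.401). In Aalter it was Insig1 (31.9), Srebf2 (23.2), Hmgcs1 (18.3), Idi1 (15.4), Fdft1 (4.44), Sqle (3.59), Dhcr7 (2.53) and Lss (0.523). Srebf2 thus held the fourth place in VE and the second in Aalter, and the other 7 genes kept their order among themselves. Library ranges of neighbours in the order overlapped for Hmgcs1 and Idi1 in VE, and for Srebf2 and Hmgcs1 and for Fdft1 and Sqle in Aalter.

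**Figure D3:**
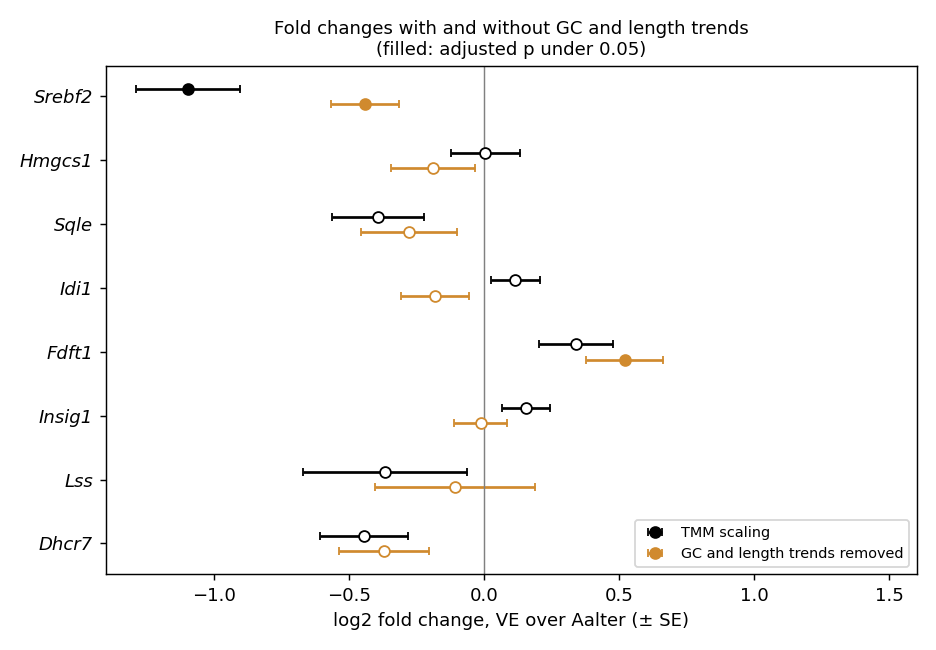
Log2 fold change of VE over Aalter (± SE) for the 8 genes with TMM scaling (black) and after removal of GC content and length trends (orange), with filled points where the adjusted p was under 0.05. Srebf2 is at -1.10 in the first fit and at -0.44 in the second, filled in both, and Fdft1 is filled at 0.52 in the second fit.

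The wider pathway was read from lists of further genes. Of 16 other enzymes of mevalonate and cholesterol synthesis, 2 rose, 2 fell and 12 did not pass, against 32.3% of all tested genes called. Their median log2 fold change was -0.045. Mvk, mevalonate kinase, averaged 4.54 ± 0.984 CPM in VE and 8.25 ± 1.77 CPM in Aalter and fell (-0.86 ± 0.23, edgeR adjusted p = 0.0305). After removal of both trends Mvk was at -0.62 and did not pass. The sterol isomerase gene Ebp rose to 36.2 ± 0.783 CPM in VE, against 28.6 ± 0.386 CPM in Aalter (0.34 ± 0.083, adjusted p = 0.0223). Lbr, a nuclear envelope protein that is also a sterol reductase, had 227 ± 2.99 CPM in VE and 174 ± 22.5 CPM in Aalter (0.38 ± 0.11, adjusted p = 0.0375). No enzyme of this list rose with library size scaling. Among those that did not pass, Sc5d was at 0.095 ± 0.090 and Cyp51 at -0.14 ± 0.11.

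Of 14 tested genes that control SREBP processing and the turnover of sterol enzymes, 1 rose and 5 fell, with a median log2 fold change of -0.34. Their share called, like that of the lists below, is to be read against the 32.3% of all tested genes. The escort gene Scap had 17.3, 15.6 and 15.3 CPM in VE, against 23.3, 28.8 and 26.4 CPM in Aalter. Its groups did not overlap, and it fell (-0.70 ± 0.12, adjusted p = 0.0103). Mbtps1, the first of the proteases that cut SREBPs, averaged 45.6 ± 5.62 CPM in VE and 63.1 ± 4.10 CPM in Aalter and also fell (-0.47 ± 0.11, adjusted p = 0.0223). With the trends removed Scap was at -0.075 (adjusted p = 0.648) and Mbtps1 at -0.14 (adjusted p = 0.357). The second protease gene, Mbtps2, did not pass (-0.064 ± 0.13, adjusted p = 0.732).

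Srebf1, the sister gene that mainly serves fatty acid synthesis, had 12.8, 11.8 and 14.5 CPM in VE, against 29.9, 47.9 and 52.4 CPM in Aalter, so Aalter-1 was again the lowest of its group. Nfya (-0.43 ± 0.12, adjusted p = 0.03) and Sp1 (-0.39 ± 0.097, adjusted p = 0.023) encode factors that work beside SREBPs at promoters, and both fell. Erlin1, which takes part in the degradation of sterol pathway proteins, was the one that rose (0.62 ± 0.17, adjusted p = 0.0346). Of those that did not pass, Rnf139 was at 0.11 ± 0.077 and Nfyb at 0.27 ± 0.10. Insig2, the second anchor gene, was at -0.52 ± 0.17 (adjusted p = 0.0559). Insig2 and Mbtps2 are named after their values were seen, as is Stard4 below.

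**Figure D4:**
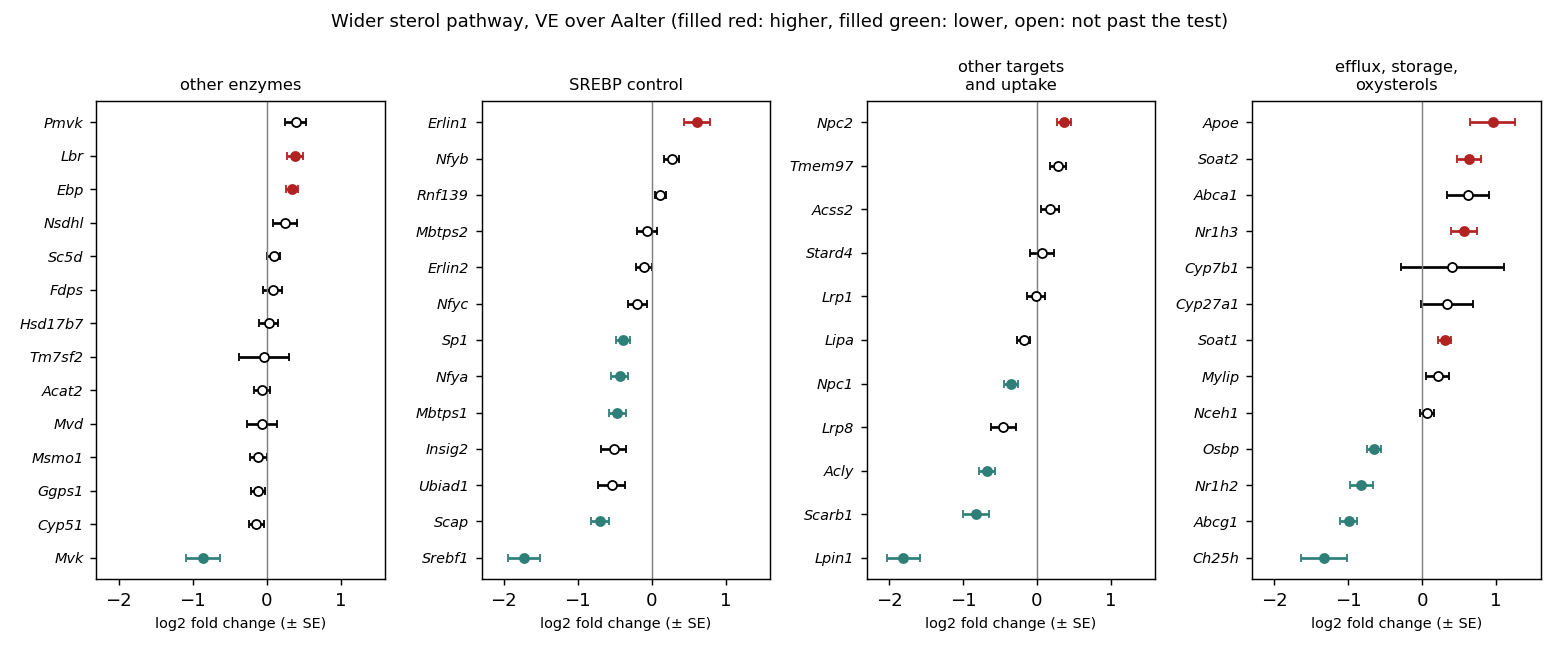
Log2 fold change of VE over Aalter (± SE) for the tested genes of 4 lists, leaving out 4 that are counted but not reported by name. Filled points passed the test, red where higher and green where lower, and open points did not. Most other enzymes lie near 0, with Mvk (-0.86) the lowest of those drawn, while Srebf1 (-1.73) is the lowest gene of SREBP control.

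Of 12 tested genes among other SREBP2 targets and sterol uptake, 1 rose and 4 fell. Npc2, which hands cholesterol out of lysosomes together with Npc1, rose to 454 ± 28.0 CPM in VE, against 352 ± 15.9 CPM in Aalter (0.37 ± 0.096, adjusted p = 0.0271). Its partner Npc1 fell (-0.35 ± 0.096, adjusted p = 0.0323). Acly, which makes acetyl-CoA in the cytosol, fell to 94.9, 94.0 and 101 CPM in VE, against 135, 163 and 166 CPM in Aalter (-0.67 ± 0.11, adjusted p = 0.00855). The other fallers were Lpin1, with 7.59 ± 1.21 CPM in VE and 26.7 ± 6.73 CPM in Aalter, and Scarb1, with 10.1 ± 2.19 CPM in VE and 17.9 ± 0.647 CPM in Aalter. Stard4, a cytosolic sterol carrier and SREBP2 target, did not pass (0.066 ± 0.16, adjusted p = 0.780), nor did Lrp1 (-0.010 ± 0.12) and Lipa (-0.18 ± 0.087).

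Genes of sterol efflux, storage and oxysterols went both ways, with 4 of 13 higher and 4 lower. Soat1 and Soat2, which esterify cholesterol for storage, both rose, by 0.30 ± 0.082 and 0.63 ± 0.16 on the log2 scale (adjusted p = 0.0302 and 0.0244). Nr1h3, the gene of the sterol sensor LXR alpha, rose (0.56 ± 0.18, adjusted p = 0.0456), while Nr1h2, the gene of LXR beta, fell (-0.82 ± 0.16, adjusted p = 0.0131). Ch25h, which makes the SREBP-blocking oxysterol 25-hydroxycholesterol, had 2.79, 2.76 and 2.87 CPM in VE, against 4.07, 9.50 and 7.71 CPM in Aalter, and fell (-1.33 ± 0.31, adjusted p = 0.0201). Osbp, an oxysterol-binding transfer protein gene, fell as well (-0.65 ± 0.096, adjusted p = 0.0074). Abcg1, a cholesterol exporter gene, had 46.7 ± 1.78 CPM in VE and 92.9 ± 12.2 CPM in Aalter.

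The exporter gene Abca1 had 212, 213 and 211 CPM in VE, against 210, 101 and 101 CPM in Aalter. Aalter-1 stood with the VE libraries, and Abca1 did not pass (0.62 ± 0.28, adjusted p = 0.128). Apoe, the apolipoprotein that macrophages load with cholesterol, had 632, 555 and 725 CPM in VE, against 504, 242 and 242 CPM in Aalter, and rose (0.95 ± 0.30, adjusted p = 0.049). Mylip (0.21 ± 0.15) and Nceh1 (0.066 ± 0.091) did not pass. Of the called genes of the 4 lists, Abcg1 and Lpin1 passed in all 6 fits that left out 1 library and Srebf1 in 5, while the others passed in 1 to 4. Over all tested genes these fits called between 179 of 12969 (without VE-2) and 7213 of 12804 (without Aalter-1). Removal of both trends also ended the calls of Ebp (0.30), Lbr (0.23), Erlin1 (0.46), Nfya (-0.30), Sp1 (-0.27), Npc1 (-0.25) and Apoe (1.23).

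Markers of several cell types moved with the groups, and their part in the values above was not tested. Their CPM were summed on the scale used for the genes. The sum of 10 neutrophil markers, of which 8 rose, was 36250 to 44283 CPM in VE and 25578 to 29931 CPM in Aalter. For 9 monocyte and interstitial macrophage markers, of which 5 rose and 1 fell, it was 4355 to 4681 CPM in VE and 1962 to 3260 CPM in Aalter. Of 12 alveolar macrophage markers 1 rose and 6 fell, and the riser, Chil3, made up most of their sum of 9135 to 9650 CPM in VE and 7349 to 8083 CPM in Aalter. The other 11 summed to 257 to 287 CPM in VE and 310 to 536 CPM in Aalter, the opposite direction.

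Of 9 B cell markers 7 fell, with a sum of 196 to 226 CPM in VE and 275 to 340 CPM in Aalter. Of 9 T cell markers 1, Cd3g, rose and 6 fell, and the sum was 584 to 708 CPM in VE and 730 to 983 CPM in Aalter. For 8 plasma cell markers, of which 2 rose and 1 fell, it was 3369 to 6278 CPM in VE and 1269 to 2849 CPM in Aalter, and without Jchain the groups overlapped, at 528 to 813 CPM in VE and 552 to 753 CPM in Aalter. For 8 ILC2 markers, of which 1 rose and 3 fell, the sum was 160 to 195 CPM in VE and 167 to 191 CPM in Aalter. For 8 markers of proliferating cells, of which 1 rose and 2 fell, it was 673 to 733 CPM in VE and 658 to 719 CPM in Aalter, so the groups overlapped for both of these lists.

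Of 10 alveolar type 2 cell markers 1, Napsa, rose and 1 fell, with a sum of 197 to 212 CPM in VE and 176 to 191 CPM in Aalter. Without Napsa the groups overlapped, at 65.1 to 77.0 CPM in VE and 71.2 to 88.7 CPM in Aalter. Sftpc, the defining surfactant gene of these cells, was at 13.4 to 18.3 CPM in VE and 12.6 to 14.4 CPM in Aalter. For 6 alveolar type 1 cell markers, of which 3 rose and 1 fell, the sum was 104 to 118 CPM in VE and 91.0 to 92.4 CPM in Aalter. Without Hopx the groups overlapped, at 49.5 to 54.5 CPM in VE and 47.4 to 51.6 CPM in Aalter. For 7 club cell markers, of which 5 fell, the sum was 112 to 142 CPM in VE and 220.4 to 416 CPM in Aalter. Endothelial markers (6, of which 1 rose and 2 fell) summed to 49.9 to 55.8 CPM in VE and 53.5 to 63.5 CPM in Aalter, with overlapping groups. Without Pecam1 the endothelial sums lay the other way and still overlapped, at 13.3 to 16.8 CPM in VE and 9.16 to 13.8 CPM in Aalter. Fibroblast markers (6, of which 1, Dcn, rose) summed to 70.6 to 86.4 CPM in VE and 61.6 to 67.3 CPM in Aalter. Without Dcn the fibroblast sums overlapped, at 31.0 to 40.7 CPM in VE and 36.2 to 39.0 CPM in Aalter. None of the marker genes of these lists was at 0 in every library. Hepatocyte markers, 12 in number, summed to 1310 CPM in VE-1 and 1005 CPM in Aalter-1 and to 36.4 to 69.0 CPM in the other libraries. Without these 2 libraries Srebf2 was at -1.21 (edgeR adjusted p = 1.16e-09), with 2 of the 8 genes higher and 3 lower, where 55.6% of tested genes were called.

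Among 8926 tested genes outside the lists with a mean of at least 5 CPM, Arfgef2, Dcp1a and Clptm1 had the pattern most like that of Srebf2 over the 6 libraries, each with a Pearson correlation of log2 CPM of 0.999. Stk25 (0.960), Tmem250-ps (0.929) and Slc7a8 (0.921) were most like Hmgcs1. These are descriptions of 6 libraries that fall into 2 groups, picked from many genes.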

How the data were processed

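RNA was sequenced from 6 mouse libraries. The deposited table holds expected counts (estimated counts per gene, not scaled), per the file headers. Between 10.5% and 12.2% of values in a library are not whole, at a tolerance of 1e-09. The submitters' processing notes name the build mm10. For the aligner, the counter and the strand setting: not given in the sources used here. Each column was tied to its sample by its name, and counts were rounded. Testing used R 4.3.3 and edgeR 4.0.16, with filterByExpr, TMM scaling, robust quasi-likelihood fits and the group as the only term, with a threshold of 0.05. Standard errors came from the log2 fold change and the F statistic (their quotient after a square root of F), and 95% intervals use the fit's degrees of freedom. CPM, marker sums included, use library size times the TMM factor. GC content and length came from the longest GENCODE vM21 transcript (mm10), and spline trends with 5 degrees of freedom were removed as offsets over 99.8% of tested genes with both values. Where a gene has no count, up to 3 counts are allowed for (0.185 to 0.258 CPM), which covers counting error only. The common biological coefficient of variation was 0.210.

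Alternatives tried were DESeq2 1.42.0, limma-voom (limma 3.58.1), scaling by RLE or by library size, no filter, a mean of at least 5 CPM, a replicate block, trends removed, the libraries numbered 1 left out together, and each library left out in turn. Fits were also run on simulated data, simpler than these libraries, and that outcome is not used as support for any call. The 8 genes and all lists were chosen with earlier results of these data known, so their counts are no independent support. Named genes are the 8, each list's called genes, up to 3 uncalled genes per list with the highest mean CPM, and those with the pattern most like Srebf2 and Hmgcs1. Some genes that the lists hold are counted but not reported here by name. Figures were drawn with matplotlib 3.10.9 under Python 3.11.15.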

Additional observations from a re-analysis of the deposited data

How the results depend on the processing

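Srebf2 was lower in VE under all 16 alternatives, with log2 fold changes from -1.28 to -0.44, and its call was lost in 3 of 6 fits with 1 library left out (-1.28 to -0.99). Lss, tested in 15 of the 16, did not pass in any. Leaving out each library in turn gave log2 fold changes from -0.091 to 0.12 for Hmgcs1, -0.54 to -0.27 for Sqle, 0.23 to 0.47 for Fdft1 and -0.54 to -0.38 for Dhcr7. Over those fits 0 to 1 of the 8 genes were higher and 0 to 3 lower. All tested genes gave 2 to 3561 higher (2 without VE-2, 3561 without Aalter-1) and 177 to 3652 lower, against 1611 and 2442 with all libraries. The other enzymes gave 0 to 3 higher and 0 to 4 lower, SREBP control 0 to 2 and 0 to 9, other targets and uptake 0 to 1 and 1 to 7, and efflux, storage and oxysterols 0 to 7 and 1 to 4. Fewer libraries enter these fits.

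With library size scaling 497 genes were higher, 3 of the 8 genes and 8 of SREBP control were lower, and 0 were higher in each of the 4 lists. Hmgcs1 was at -0.13, Idi1 at -0.022, Sqle at -0.53 and Dhcr7 at -0.58. Without Aalter-1 and VE-1 together 3403 genes were higher. Of the 8 genes 2 were higher and 3 lower, of SREBP control 9 lower and of other targets 2 higher, with Sqle at -0.52, Fdft1 at 0.46, Insig1 at 0.22 and Dhcr7 at -0.47. With trends on GC content and length taken out 1604 genes were lower. There 1 of the 8 genes, 0 of the other enzymes, 0 of SREBP control and 2 of the other targets were higher, and 0 of the other enzymes and 2 of SREBP control lower. Hmgcs1 was at -0.19, Idi1 at -0.18, Insig1 at -0.013 and Fdft1 at 0.52. The cause of these shifts was not tested.

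Same-numbered libraries had correlations of 0.299, 0.272 and 0.0532 between their deviations from the group means. VE-1 correlated best with Aalter-1 and VE-2 with Aalter-2, but VE-3 did so with Aalter-2 (0.0967). The main fit did not take the numbers as pairs, and a shared factor behind them was not tested. With the replicate block 3268 genes were called, 1194 of them higher and 2074 lower. Among the other enzymes 0 were higher and 1 lower, among other targets 0 higher and among efflux genes 2 higher, with Hmgcs1 at -0.0017. The replicate block with the trends removed gave 1289 genes lower. Of the 8 genes 1 was higher, of the other enzymes 0 were higher and 0 lower, of SREBP control 0 higher and 1 lower, and of the other targets 2 lower. Hmgcs1 was at -0.19, Idi1 at -0.18, Fdft1 at 0.53 and Insig1 at -0.013. No filter gave 2 higher efflux genes, and limma-voom put Hmgcs1 at -0.00026. Lss rests on 22 to 60 counts per library.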
